A study of Mus musculus with 32 samples.

Results

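Transcript levels in interscapular brown adipose tissue (iBAT), a fat depot of the upper back whose cells burn fuel for heat, were compared between Zeitgeber time (ZT) 21, which lies 3 h before lights on, and ZT0, the moment of lights on. The members were chosen by sampling time alone: the 4 mice labelled ZT0 and the 4 labelled ZT21, which are 8 of the 32 mice of the series. Every mouse was a male C57BL/6J of 10 weeks with free access to chow, held at 22 °C under 12 h of light and 12 h of dark, and none had been fasted. There was no genotype or treatment group, each mouse gave 1 library, and mice were sampled once each, so the values are a cross-section and not a course within an animal. All 4 ZT0 libraries were sequenced on lane 2 and all 4 ZT21 libraries on lane 4, so lane and time of day cannot be told apart in this contrast.

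The last hours of the dark phase are the end of the feeding and activity period of a mouse, and lights on starts its rest period. Peripheral tissues carry a molecular clock in which the activators BMAL1 (gene Arntl), CLOCK and NPAS2 drive the Per, Cry and Nr1d repressor genes, which in turn hold the activators back. Body temperature, feeding and glucocorticoid hormone also follow the day, and heat shock genes, lipid genes and hormone-responsive genes are textbook readouts of these signals in fat. Heat shock genes are switched on by heat shock factor HSF1 through heat shock elements, and the genes of endoplasmic reticulum (ER) chaperones through elements that include a binding box for the factor NF-Y.

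Promoter sequences of some of the genes described below are shown first, because chaperone genes carried the largest differences between the 2 time points and a clock repressor gene was among the genes that fell. Each run is the 250 bases before the annotated start of the gene, written 5′ to 3′ on the strand of the gene, from RefSeq on mouse GRCm38.p6. The first set holds the heat shock genes Hspa1b (chr17:34959239-34959488, minus strand), its neighbouring copy Hspa1a (chr17:34972157-34972406, minus strand) and Hspb1 (chr5:135887669-135887918, plus strand), with the heat shock element core GAANNTTC in capitals:
Hspa1b: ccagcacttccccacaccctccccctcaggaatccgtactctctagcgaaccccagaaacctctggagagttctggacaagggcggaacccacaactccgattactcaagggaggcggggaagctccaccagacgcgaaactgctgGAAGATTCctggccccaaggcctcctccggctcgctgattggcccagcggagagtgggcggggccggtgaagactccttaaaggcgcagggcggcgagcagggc
Hspa1a: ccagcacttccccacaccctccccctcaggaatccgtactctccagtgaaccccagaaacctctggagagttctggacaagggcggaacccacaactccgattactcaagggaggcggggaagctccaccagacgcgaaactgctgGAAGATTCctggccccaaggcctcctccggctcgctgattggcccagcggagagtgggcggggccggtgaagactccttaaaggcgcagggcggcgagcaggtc
Hspb1: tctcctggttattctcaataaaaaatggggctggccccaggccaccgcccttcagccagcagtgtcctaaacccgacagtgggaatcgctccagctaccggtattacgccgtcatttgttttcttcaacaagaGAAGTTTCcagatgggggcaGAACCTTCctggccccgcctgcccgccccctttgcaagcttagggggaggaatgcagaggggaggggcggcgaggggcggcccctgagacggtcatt
The Hspa1a and Hspa1b windows were identical at 247 of 250 positions. The second set holds the ER chaperone gene Hspa5 (chr2:34771840-34772089, plus strand), with the NF-Y box CCAAT in capitals on either strand:
Hspa5: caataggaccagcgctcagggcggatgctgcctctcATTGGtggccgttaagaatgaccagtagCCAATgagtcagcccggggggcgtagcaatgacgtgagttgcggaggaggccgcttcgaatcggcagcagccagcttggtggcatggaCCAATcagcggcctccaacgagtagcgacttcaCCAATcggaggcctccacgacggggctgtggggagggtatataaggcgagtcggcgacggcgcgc
The last is the clock repressor gene Per3 (chr4:151044666-151044915, minus strand), with the D-box TTATGTAA in capitals:
Per3: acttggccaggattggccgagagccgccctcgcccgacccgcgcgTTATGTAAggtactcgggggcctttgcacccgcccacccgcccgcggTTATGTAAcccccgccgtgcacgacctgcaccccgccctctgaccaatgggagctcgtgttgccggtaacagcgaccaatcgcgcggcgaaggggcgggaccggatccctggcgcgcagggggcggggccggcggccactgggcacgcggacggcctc

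Motifs were searched on both strands in these windows. The heat shock element core GAANNTTC was found in 5 of the 14 heat shock genes with a window that were higher at ZT0 (Hspa1a, Hspa1b, Hspb1, Dnaja1 and Fkbp4). It was also found in 2 of the 4 heat shock genes with a window that were not called (Hspd1 and Hspe1), and in 6.09% of the 10910 tested genes with a window. A gene with more than 1 window counts as holding a motif if any of them does. Of the ER chaperone genes higher at ZT0, all 7 with a window held CCAAT, against 39.8% of tested genes. Over all genes higher at ZT0 the 2 shares were 7.89% and 43.2% of 380 genes with a window, and over genes lower at ZT0 they were 4.75% and 36.4% of 505 such genes. The E-box CACGTG was in 10.0% of the former and 12.7% of the latter, beside 9.65% of tested genes. The other searched motifs, TTATGTAA or TTACGTAA (D-box), TAGGTCA (REV-ERB and ROR element) and TGACGTCA (cAMP element), were each in under 3% of the genes of both sets. Per3 was the only 1 of the 7 called clock genes, all with a window, to hold a D-box, beside 0.742% of tested genes. A match describes letters in the window and does not show binding.

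Total counts of the 8 libraries ran from 16680401 to 18187410. Of 50686 genes in the count table, 15505 passed the filter on low counts. Levels are given as CPM, the counts of a gene scaled to a library of fixed size after TMM correction, and differences as log2 fold changes, ZT0 minus ZT21, with the standard error (SE) and the Benjamini-Hochberg adjusted p of edgeR's quasi-likelihood test. Genes are named as called, higher or lower by this test unless DESeq2 is named. Skeletal muscle transcripts varied between mice of both groups: the summed CPM of 20 muscle markers was 61.6, 430, 7143 and 4080 at ZT0 and 3280, 272, 4421 and 94.5 at ZT21. edgeR called 0 of these 20 markers, with 0 at an unadjusted p under 0.05 and 0 by DESeq2. Beside these and the next marker lists, edgeR called 7.72% of all tested genes and DESeq2 1346 of 13699. An unadjusted p under 0.05 was reached by 3390 of 15505 genes. In lists this short, 0 calls do not show equal cell composition. Brown adipocyte markers were high in every library, with a summed CPM of 12 markers of 12761 to 14761 at ZT0 and 11178 to 14172 at ZT21, and edgeR called 0 of the 12 (1 at an unadjusted p under 0.05, 1 by DESeq2). For markers of white adipocytes (6 tested), blood (9), macrophages and leukocytes (21), lymph node (10), fibroblasts (12) and nerve (8), edgeR and DESeq2 called 0. At an unadjusted p under 0.05 the numbers were 2, 6, 1, 0, 1 and 0. All 6 blood markers among these were higher at ZT0, where the summed CPM of the 9 ran from 598 to 973, against 464 to 727 at ZT21, and their part in other results was not tested. In bulk tissue, fewer cells of a type and less RNA per cell cannot be told apart.

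At ZT0, 1197 of the 15505 genes (7.72%) differed from ZT21 at an adjusted p under 0.05. Of these, 543 (3.50%) were higher and 654 (4.22%) lower at ZT0. An unadjusted p under 0.05 was reached by 3390 genes, and DESeq2 called 624 higher and 722 lower of 13699 genes. Those totals stand beside the list counts below. The differences were modest: the median fold was 1.36 among higher genes and 1.39 among lower genes, and 83 genes rose and 49 fell by more than 2-fold. In 979 of the called genes the 4 ZT0 mice did not overlap the 4 ZT21 mice, and over all tested genes 2000 (12.9%) showed no overlap. The number called moved by more than 1.5 times with single libraries: it was 779 without ZT0 replicate 1, 581 without ZT0 replicate 2, 780 without ZT0 replicate 3, 596 without ZT21 replicate 1 and 777 without ZT21 replicate 2. Without the 4 libraries with the most muscle transcripts (ZT0 replicates 3 and 4, ZT21 replicates 1 and 3) it was 277, and with a muscle score as a covariate 1214. A fit of a 24 h cosine beside lane, which takes the difference of ZT0 and ZT21 only from changes within lanes, gave 198 of the 1197 genes the same sign as here. Of the 543 genes called higher here, that fit called 155 lower and 7 higher, and of the 654 called lower here 159 higher and 14 lower, so the directions below are those of 2 groups that also differ in lane.

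**Figure D1:**
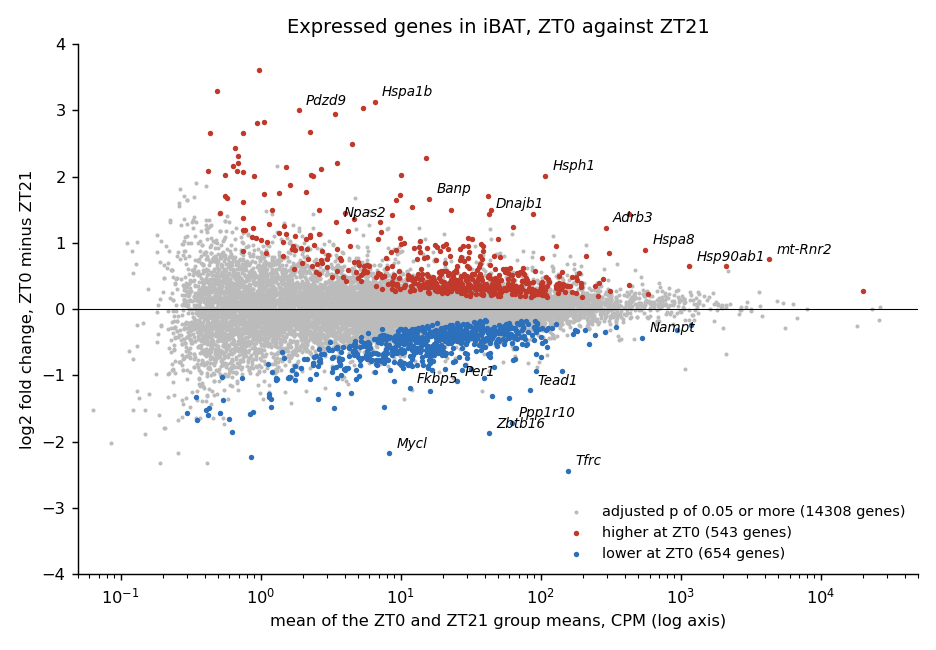
Log2 fold change (ZT0 minus ZT21, vertical axis) against the mean level in CPM (horizontal log axis) of each of the 15505 tested genes, with 543 genes higher at ZT0 in red, 654 lower in blue and the others in grey. Labelled chaperone genes such as Hsph1 (log2 fold change 2.01) lie above the cloud of grey points, and Tfrc (-2.44) lies lowest among the called genes.

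Most genes of heat shock proteins and cytosolic chaperones, which fold and refold proteins, were higher at ZT0. Of 23 tested members of this list, 16 were higher at ZT0 and 0 lower, beside 3.50% of all genes called higher, and the log2 fold change was positive in all 23. DESeq2 called 18 higher and 0 lower. Its median was 0.76, beside 0.01 over all tested genes. The count was 16 with a muscle covariate and 9 without the 4 libraries with muscle transcripts. The 24 h cosine beside lane went the other way: it called 15 of the 23 lower and 0 higher at ZT0. Over all 15505 genes it called 653 lower and 692 higher. Its log2 difference was -1.97 for Hspa1a (adjusted p = 0.000396 in edgeR's fit) and -0.74 for Dnajb1 (adjusted p = 0.00127 in edgeR's fit).

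The largest fold change of the list was in the inducible HSP70 pair. Hspa1b (chr17:34956436-34959238 on GRCm38) was at 7.45, 15.7, 19.4 and 4.45 CPM in ZT0 replicates 1 to 4 and at 1.13, 1.61, 1.11 and 1.49 CPM in ZT21 replicates 1 to 4. Every ZT0 mouse was above every ZT21 mouse, and the means were 11.8 ± 6.98 and 1.34 ± 0.252 CPM (SD, n = 4 each), a log2 fold change of 3.13 ± 0.50 (SE) with edgeR adjusted p = 0.00035. Hspa1a was at 6.68, 11.8, 15.1 and 4.67 CPM at ZT0 and at 1.02, 1.89, 0.835 and 0.92 CPM at ZT21, with a log2 fold change of 3.03 ± 0.49 (SE) and edgeR adjusted p = 0.00037. Both genes encode nearly the same protein, so reads may be split between them and the share of each is uncertain.

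Hsph1, which encodes the HSP110 nucleotide exchange factor of HSP70, was at 178, 171, 250.3 and 94.7 CPM at ZT0 and 36.6, 64.6, 38.8 and 32.3 CPM at ZT21. The groups did not overlap, and the mean was 4.03 times as high at ZT0 (log2 fold change 2.01 ± 0.33 SE, edgeR adjusted p = 0.000451). The HSP40 co-chaperone Dnajb1 was at 60.7, 74, 69.1 and 45.6 CPM at ZT0 and 20.9, 26.5, 19.3 and 25.4 CPM at ZT21 (log2 fold change 1.44, adjusted p = 3.05e-05), again without overlap. Its relative Dnaja1 was at 122, 142, 165 and 90.8 CPM at ZT0 and 43.7, 57.5, 41.8 and 49.5 CPM at ZT21 (log2 fold change 1.43, adjusted p = 1.72e-05). Chordc1, an HSP90 co-chaperone, went from 37.7 ± 2.26 to 88.7 ± 19.4 CPM (SD, n = 4 each, log2 fold change 1.24, adjusted p = 7.67e-05).

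The log2 fold changes of Hspa8 and Hsp90ab1 were below that of Hsph1. Hspa8, the constitutive HSP70, was at 629, 779.9, 936 and 563 CPM at ZT0 and at 331, 489, 348 and 395 CPM at ZT21. All ZT0 mice were again above all ZT21 mice, with a log2 fold change of 0.90 ± 0.19 (SE, edgeR adjusted p = 0.00323). Hsp90ab1, the constitutive cytosolic HSP90, was at 1432, 1281, 1588 and 1315 CPM at ZT0 and 909.8, 1014, 987 and 672 CPM at ZT21 (log2 fold change 0.65, adjusted p = 0.00499). The inducible HSP90 gene Hsp90aa1 did not pass the threshold: it was at 233, 183, 269 and 146 CPM at ZT0 and 111, 152, 119 and 94.9 CPM at ZT21, overlapping at 1 mouse of each group (log2 fold change 0.80, adjusted p = 0.0593 by edgeR and 0.0236 by DESeq2).

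Among further members, the small heat shock protein gene Hspb1 had a log2 fold change of 1.05 (adjusted p = 0.00725), the HSP70 co-chaperone gene Bag3 0.87 (adjusted p = 0.000115), the collagen chaperone gene Serpinh1 0.85 (adjusted p = 0.000455) and the HSP70-HSP90 organiser gene Stip1 0.76 (adjusted p = 0.00786). Fkbp4 and Ahsa1, co-chaperones of HSP90, had 0.57 (adjusted p = 0.00109) and 0.57 (adjusted p = 0.0184), Dnajb4 0.52 (adjusted p = 0.000313) and Hspa4 0.36 (adjusted p = 0.0362). The call of Ahsa1 was lost without ZT0 replicate 3 or without ZT21 replicate 1 (adjusted p 0.0529 to 0.0863), and that of Hspa4 was lost without ZT0 replicates 1, 2 or 3 or without ZT21 replicates 1, 2 or 3 (adjusted p 0.0657 to 0.131). The mitochondrial chaperonin genes Hspd1 and Hspe1 had log2 fold changes of 0.25 and 0.42 and were not called by edgeR, while DESeq2 called Hspe1 (adjusted p = 0.0437). Also not called was Hsf1, the gene of the heat shock factor itself (0.17).

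The mice differed among themselves in a shared order. Of the 16 called members, 14 were highest in ZT0 replicate 3 and 14 were lowest in ZT0 replicate 4 among the ZT0 mice, and 13 were highest in ZT21 replicate 2 among the ZT21 mice. A low ZT0 replicate 4 was not particular to this list: 7 of the 8 called ER chaperone genes were also lowest there. Leaving out ZT0 replicate 4 gave 19 called members, and leaving out any 1 of the other 7 libraries gave 14 to 16.

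**Figure D2:**
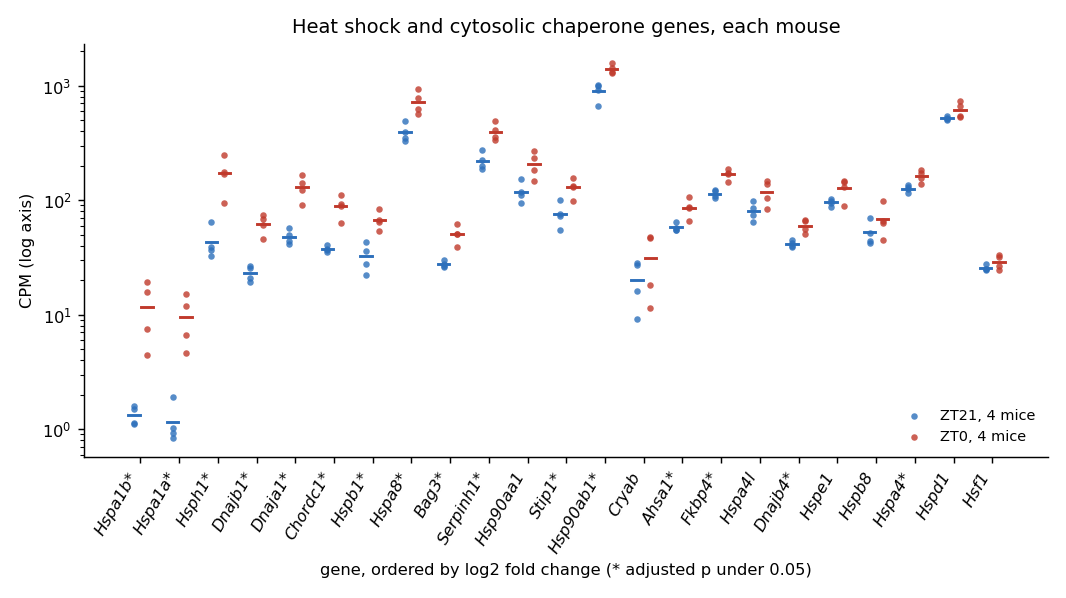
Levels of the 23 heat shock and cytosolic chaperone genes in CPM (vertical log axis) in each ZT21 mouse (blue) and each ZT0 mouse (red), with the group means as short bars and the genes ordered by log2 fold change. The red points lie above the blue ones in 15 genes without overlap, and the log2 fold change falls from Hspa1b on the left to Hsf1 on the right.

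Libraries of the neighbouring time points on the same lanes place these values. They share the ZT0 or the ZT21 mice with the main comparison and are no independent support for it. Within lane 2, 1024 genes (6.60%) were higher and 1110 (7.16%) lower at ZT0 than at ZT3, and 21 of the 23 heat shock genes were higher and 0 lower, with a median log2 fold change of 0.87. Within lane 4, 192 genes (1.24%) were higher and 128 (0.826%) lower at ZT21 than at ZT18, and 7 of the 23 heat shock genes were lower and 0 higher, with a median of -0.23. Dnajb1 averaged 48.7 CPM at ZT15, 41.8 at ZT18, 23 at ZT21, 62.3 at ZT0 and 24.8 at ZT3. Hsph1 averaged 127, 96.7, 43.1, 174 and 47.6 CPM at the same times. Over the 8 time points, 11 of the 16 called members had their highest mean at ZT0 (beside 74.6% of all genes called higher), 4 at ZT15 and 1 at ZT18, while 1 had its lowest mean at ZT21.

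Genes outside the list with some of the largest rises were Banp, P4ha1 and Pgm3. Banp, which encodes a nuclear matrix-associated DNA-binding protein, was at 25.2, 25.2, 25.7 and 21.3 CPM at ZT0 and 6.62, 7.86, 7.63 and 8.51 CPM at ZT21 (log2 fold change 1.67, adjusted p = 1.39e-05). P4ha1, a subunit of collagen prolyl 4-hydroxylase, was at 60.6, 72.5, 79.5 and 46.9 CPM at ZT0 and 18, 23.5, 22 and 16 CPM at ZT21 (log2 fold change 1.71, adjusted p = 0.000153). Pgm3, an enzyme of the hexosamine pathway, had a log2 fold change of 1.64 (adjusted p = 6.08e-05). No overlap between the groups was seen for any of these. In the 24 h cosine beside lane, Banp was called lower at ZT0 (-1.02, edgeR adjusted p = 9.87e-05), as was P4ha1 (-1.03, edgeR adjusted p = 0.000523). The 42 tested proteasome subunit genes had 0 calls by edgeR, beside 7.72% of all genes, 1 at an unadjusted p under 0.05 and 0 by DESeq2, with a median log2 fold change of 0.07.

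Some genes of ER chaperones and the unfolded protein response were also higher at ZT0, by smaller amounts. Of 22 tested, 8 were higher and 0 lower at ZT0, beside 3.50% of all genes called higher, with a median log2 fold change of 0.29. The log2 fold change was positive in 17 of the 22. At an unadjusted p under 0.05 10 were higher and 3 lower, beside 3390 of 15505 genes in either direction. Manf, a secreted ER stress protein, was at 28.1, 30.6, 31.5 and 25.1 CPM at ZT0 and 16.2, 16, 17.4 and 16.6 CPM at ZT21. The mice of the groups stood well apart, with a log2 fold change of 0.80 ± 0.10 (SE, edgeR adjusted p = 3.39e-05). Hsp90b1, the ER form of HSP90, was at 202, 196, 193 and 186 CPM at ZT0 and 137, 131, 157 and 131 CPM at ZT21 (log2 fold change 0.48, adjusted p = 0.000109). Hspa5, the ER HSP70 known as BiP, was at 289, 308, 302 and 279 CPM at ZT0 and 207, 234, 219 and 241 CPM at ZT21 (log2 fold change 0.39, adjusted p = 0.00139). The lectin chaperones Calr and Canx had 0.39 and 0.34, and the disulfide isomerases Pdia3, Pdia4 and Pdia6 had 0.35, 0.37 and 0.27.

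The 8 called ER members had their highest mean of all 8 time points at ZT0 and their lowest at ZT21. These genes were selected for being higher at ZT0 than at ZT21, which partly fixes that order, and 20.4% of all 543 genes called higher had it. Xbp1, a transcription factor gene of the same list, had a log2 fold change of 0.45 (adjusted p = 0.207). Each of the 8 fits that left out 1 library called 8 members, while the fit without the 4 libraries with muscle transcripts called 6. The integrated stress response list had 0 higher and 1 lower (Vldlr) of 18 by edgeR, beside 3.50% and 4.22% of all genes, and 2 higher and 4 lower by DESeq2. Its member Ddit3, the stress factor CHOP, had a log2 fold change of 0.53 (adjusted p = 0.0804 by edgeR and 0.0481 by DESeq2).

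Core clock genes moved in both directions. Of the activators, Arntl and Npas2 were higher at ZT0 and Clock was not called (log2 fold change 0.10, adjusted p = 0.614). Arntl was at 30.3, 35.9, 32.1 and 39.4 CPM at ZT0 and 14.2, 16.8, 21.5 and 27.6 CPM at ZT21. All ZT0 mice were above all ZT21 mice, and the log2 fold change was 0.78 ± 0.24 (SE, edgeR adjusted p = 0.0391). The call of Arntl was lost without ZT0 replicates 1, 2, 3 or 4 or without ZT21 replicates 1, 2 or 3 (adjusted p 0.0532 to 0.16). Npas2 was at 6.55, 5.51, 3.58 and 4.17 CPM at ZT0 and 1.98, 1.38, 2.45 and 2.13 CPM at ZT21, so that its mean was 2.5 times as high at ZT0 (log2 fold change 1.31 ± 0.34 SE, edgeR adjusted p = 0.0167), and the call was lost without ZT0 replicates 1 or 2 or without ZT21 replicates 1 or 2 (adjusted p 0.0529 to 0.0634). From ZT18 to ZT21, within lane 4, Npas2 rose by a log2 fold change of 2.29 (adjusted p = 0.00491), from a mean of 0.401 CPM.

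Among 11 repressor genes, 1 was higher and 2 lower at ZT0, beside 3.50% and 4.22% of all genes. Nr1d1, which encodes the repressor REV-ERBα of Arntl, was at 18.6, 29.9, 44 and 54.4 CPM at ZT0 and 19.1, 18.7, 15.1 and 23.5 CPM at ZT21. ZT0 replicate 1 lay within the ZT21 values, and the log2 fold change was 0.95 ± 0.23 (SE, edgeR adjusted p = 0.0101). Within lane 2, ZT0 was far below ZT3 for this gene (log2 fold change -2.20, adjusted p = 2.27e-06). Its relative Nr1d2 had -0.27 (adjusted p = 0.419) between ZT21 and ZT0.

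Per1 was at 10.1, 15.4, 19.3 and 19.8 CPM at ZT0 and 27, 44, 33 and 33.9 CPM at ZT21, without overlap (log2 fold change -1.09 ± 0.31 SE, edgeR adjusted p = 0.0286), and the call was lost without ZT0 replicates 1 or 2 or without ZT21 replicate 2 (adjusted p 0.0837 to 0.101). Per3 was at 31.8, 30.2, 29.2 and 37.4 CPM at ZT0 and 55.9, 61.2, 45.6 and 44 CPM at ZT21, also without overlap (log2 fold change -0.68 ± 0.19 SE, edgeR adjusted p = 0.0241), and the call was lost without ZT0 replicates 1, 2 or 3 or without ZT21 replicates 1 or 2 (adjusted p 0.0567 to 0.0853). Per2, Cry1 and Cry2 were not called, with log2 fold changes of 0.17, -0.23 and 0.02. Of 7 output factors, the nuclear receptor gene Rora (-0.63, adjusted p = 0.00357) and the ubiquitin protease gene Usp2 (-0.90, adjusted p = 0.0301) were lower and none was higher, beside the same shares. The call of Usp2 was lost without ZT0 replicates 1 or 2 or without ZT21 replicates 1 or 2 (adjusted p 0.0906 to 0.123). The D-box factor gene Dbp had -0.41 (adjusted p = 0.376) and the opposing repressor gene Nfil3 0.65 (adjusted p = 0.0904). The cold-inducible RNA-binding protein genes Cirbp (-0.50, adjusted p = 0.0799) and Rbm3 (-0.03, adjusted p = 0.924) did not pass by edgeR, while DESeq2 called Cirbp lower (adjusted p = 0.0496).

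**Figure D3:**
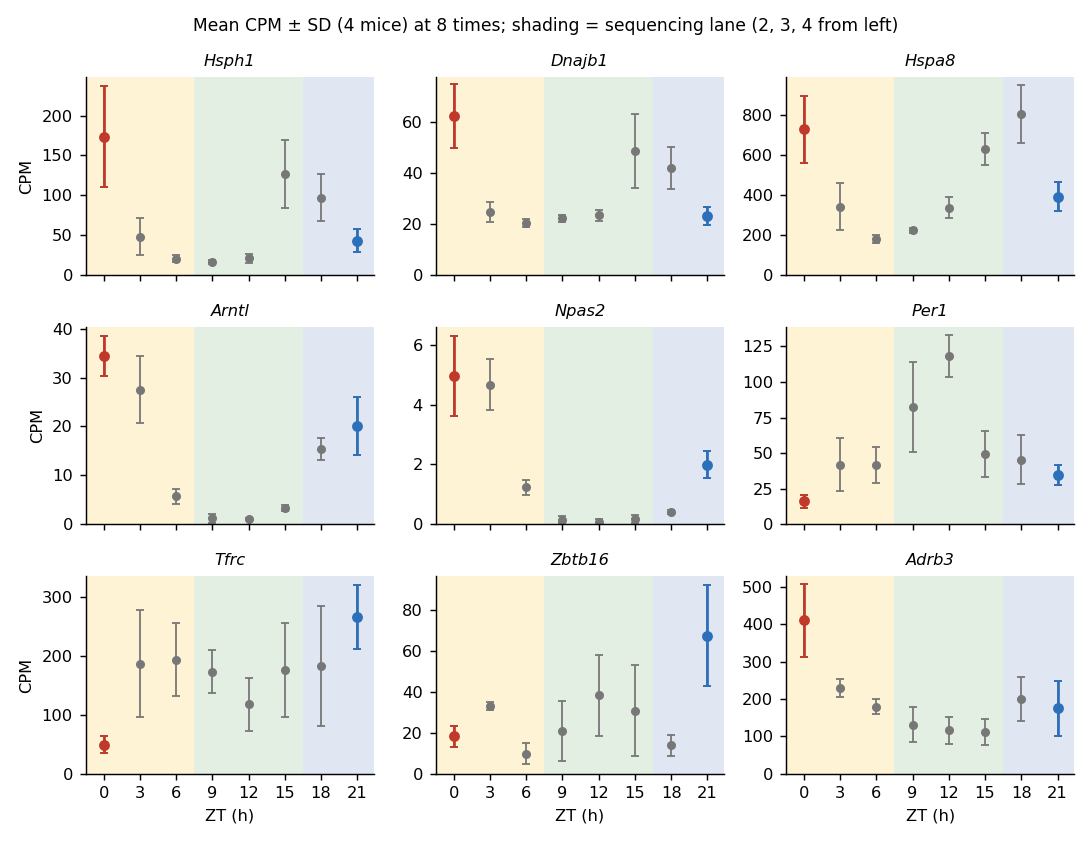
Mean CPM (vertical axes, from 0) ± SD over 4 mice at each of the 8 time points (horizontal axes, ZT in h) for 9 genes, with ZT0 in red, ZT21 in blue and background shading for sequencing lanes 2, 3 and 4. Hsph1, Dnajb1 and Hspa8 were higher at ZT0 and at ZT15 and ZT18 than at ZT21, and the Tfrc mean of 49.2 CPM at ZT0 was below that of every other time point.

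Some genes induced by glucocorticoids, the adrenal hormones that peak around the onset of activity, were lower at ZT0. Of 16 tested genes of this list 5 were lower and 0 higher, beside 4.22% of all genes called lower, and the median log2 fold change was -0.27. Within lane 4, 4 of the 16 were higher and 0 lower at ZT21 than at ZT18, with a median of 0.06. The shares over all genes there were 1.24% and 0.826%. Within lane 2, 1 was higher and 5 lower at ZT0 than at ZT3, beside 6.60% and 7.16% of all genes. The 24 h cosine beside lane called 2 of the 16 lower and 3 higher, beside 653 lower and 692 higher of all 15505 genes. The transcription factor gene Zbtb16 was at 15, 14.2, 25.4 and 18.7 CPM at ZT0 and 91.6, 54.6, 84.3 and 39 CPM at ZT21, so that no ZT0 mouse reached the lowest ZT21 mouse (log2 fold change -1.88 ± 0.47 SE, edgeR adjusted p = 0.0144). The call of Zbtb16 was lost without ZT0 replicate 2 or without ZT21 replicate 1 (adjusted p 0.0547 to 0.059). Fkbp5, an HSP90 co-chaperone that restrains the receptor, was at 6.1, 5.33, 10.9 and 5.84 CPM at ZT0 and 21.2, 17.3, 14.8 and 11.3 CPM at ZT21 (log2 fold change -1.20, adjusted p = 0.0367), and its call was lost without ZT0 replicates 1, 2 or 4 or without ZT21 replicates 1, 2 or 3 (adjusted p 0.0578 to 0.134).

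Tsc22d3, which encodes the leucine zipper protein GILZ, had a log2 fold change of -0.57 (adjusted p = 0.0399) and lost its call without ZT0 replicates 1, 2 or 4 or without ZT21 replicates 1, 2, 3 or 4 (adjusted p 0.055 to 0.127). Klf9, a Kruppel-like factor, was at 76.8, 54, 73.6 and 52.1 CPM at ZT0 and 91.2, 106, 84.8 and 90.8 CPM at ZT21 (log2 fold change -0.54, adjusted p = 0.00272), a call that held in each fit without 1 library. The fifth member is Per1. Sgk1 and Pdk4 were not called: Sgk1 had 0.04 (adjusted p = 0.954), and Pdk4 was at 461, 824, 519 and 1191 CPM at ZT0 and 1788, 1314, 1198 and 1298 CPM at ZT21, without overlap (log2 fold change -0.90, adjusted p = 0.109). The number called in the list was 2 without ZT0 replicate 1, 1 without ZT0 replicate 2, 2 without ZT21 replicate 1 or 2, and 3 without ZT21 replicate 3. Without the 4 libraries with muscle transcripts it was 1.

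The largest fold fall among the named genes was in Tfrc (chr16:32608920-32632794 on GRCm38), the transferrin receptor through which cells take up iron. It was at 33.7, 62.4, 39.7 and 60.9 CPM at ZT0 and 340.4, 232, 275 and 218 CPM at ZT21. The highest ZT0 mouse was far below the lowest ZT21 mouse, and the mean was 5.42 times as high at ZT21 (log2 fold change -2.44 ± 0.41 SE, edgeR adjusted p = 0.000509). Within lane 2, ZT0 was also below ZT3 (log2 fold change -1.93, adjusted p = 0.00269).

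Mycl, a MYC family transcription factor gene, was at 2.7, 3.38, 1.13 and 4.73 CPM at ZT0 and 10.6, 11.2, 19.1 and 13.4 CPM at ZT21 (log2 fold change -2.18, adjusted p = 0.019), and its call was lost without ZT0 replicates 1, 2 or 3 or without ZT21 replicate 3 (adjusted p 0.0531 to 0.0696). Ppp1r10, a nuclear regulator of protein phosphatase 1, was at 15.9, 34.2, 35 and 30.6 CPM at ZT0 and 64.8, 141, 68.5 and 106 CPM at ZT21 (log2 fold change -1.72, adjusted p = 0.0121). Tead1, a DNA-binding partner of the Hippo pathway coactivators, was at 48.8, 39.7, 64.7 and 47.4 CPM at ZT0 and 123, 152, 103 and 90.7 CPM at ZT21 (log2 fold change -1.22, adjusted p = 0.00164). In each of these 3 genes the groups did not overlap.

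Arhgap32, a GTPase activating protein gene, was at 21.3, 21.6, 27.9 and 31.4 CPM at ZT0 and 60.2, 77.7, 61.6 and 55.6 CPM at ZT21 (log2 fold change -1.32, adjusted p = 3.05e-05). The microtubule-associated Map9 and the transmembrane protein gene Tmeff1 had -1.29 (adjusted p = 0.00185) and -1.23 (adjusted p = 0.00367). Other genes among the 15 lowest fold changes were the phosphatase gene Pxylp1, the transcription factor genes Nfe2l3 and Smad9, the metalloprotease gene Adamts6, the small GTPase gene Rab20 and the microtubule-associated Map7d3. Their log2 fold changes ran from -1.48 for Pxylp1 to -1.26 for Map7d3. The calls of Nfe2l3, Rab20 and Map7d3 were lost, for Nfe2l3 without ZT0 replicates 2, 3 or 4 or without ZT21 replicates 1, 2 or 3 (adjusted p 0.0535 to 0.137), for Rab20 without ZT0 replicates 1, 2 or 3 or without ZT21 replicate 1 (adjusted p 0.0543 to 0.091) and for Map7d3 without ZT0 replicates 1, 2 or 3 or without ZT21 replicates 1 or 3 (adjusted p 0.0697 to 0.129). Of 22 cell cycle genes 2 were lower, the cyclin gene Ccne2 (-1.05, adjusted p = 0.0138) and the mitotic kinase gene Wee1 (-0.69, adjusted p = 0.0231), and none was higher, beside 4.22% of all genes called lower. Their calls were lost, for Ccne2 without ZT0 replicates 2 or 3 (adjusted p 0.0529 to 0.0542) and for Wee1 without ZT0 replicates 2, 3 or 4 or without ZT21 replicates 1 or 2 (adjusted p 0.0521 to 0.0795).

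Further genes were named for the size of their fall in CPM. Sptbn1, which encodes a spectrin of the membrane skeleton, was at 811, 806, 805 and 919.8 CPM at ZT0 and 1049.6, 1027, 1041 and 1034 CPM at ZT21 (log2 fold change -0.31, adjusted p = 0.00224). Nampt, the rate-limiting enzyme of NAD salvage, was at 538, 442, 465 and 371 CPM at ZT0 and 596, 650.4, 566 and 641 CPM at ZT21 (log2 fold change -0.43, adjusted p = 0.0301), without overlap, and its call was lost without ZT0 replicates 2, 3 or 4 or without ZT21 replicates 1, 2 or 4 (adjusted p 0.0585 to 0.085). The calcium channel gene Itpr1 had -0.52 (adjusted p = 0.00254). Falls whose calls were lost in some fits without 1 library were also seen in Ces1d, a carboxylesterase active on lipids (-0.25, adjusted p = 0.0414, lost without ZT0 replicates 2, 3 or 4 or without ZT21 replicates 1, 2, 3 or 4, adjusted p 0.0652 to 0.128), in the antiproliferative gene Tob2 (-0.93, adjusted p = 0.0158, lost without ZT0 replicates 1 or 2 or without ZT21 replicate 2, adjusted p 0.0507 to 0.0823) and in the kinesin gene Kif1b (-0.34, adjusted p = 0.0234, lost without ZT0 replicate 2 or without ZT21 replicates 1 or 4, adjusted p 0.0506 to 0.117).

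Among thermogenic genes, edgeR called 1 of 17 (5.88%), beside 7.72% of all genes, and DESeq2 called 2 higher. The edgeR call was Adrb3, the β3-adrenergic receptor gene through which noradrenaline activates brown fat. It was at 461, 493, 273 and 413 CPM at ZT0 and 112, 112, 234 and 243 CPM at ZT21. The lowest ZT0 mouse stood just above the highest ZT21 mouse, and the mean was 2.34 times as high at ZT0 (log2 fold change 1.23 ± 0.28 SE, edgeR adjusted p = 0.0078). The β1 receptor gene Adrb1 was not called (0.17, adjusted p = 0.785). Ucp1, the uncoupling protein that produces heat, was at 2929, 2346, 3116 and 2027 CPM at ZT0 and 1652, 2309, 1145 and 1921 CPM at ZT21, overlapping groups with a log2 fold change of 0.57 (adjusted p = 0.243).

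edgeR called 0 of 18 genes of de novo lipogenesis, 13 of triglyceride synthesis, 11 of lipid droplet coats, 18 of the tricarboxylic acid cycle, 20 of branched-chain amino acid breakdown and 24 of insulin signalling, beside 7.72% of all genes. At an unadjusted p under 0.05 these lists had 2, 0, 1, 1, 0 and 2 genes, and by DESeq2 0, 0, 1, 0, 0 and 2. Fasn, the fatty acid synthase gene, was at 25723, 19981, 36265 and 17025 CPM at ZT0 and 24417, 31999, 22010.0 and 32884 CPM at ZT21 (log2 fold change -0.17, adjusted p = 0.887), and Acly, which supplies its acetyl-CoA, had -0.29 (adjusted p = 0.802). Lpl, the lipase that frees fatty acids from circulating triglycerides, was at 3565, 2986, 3239.7 and 2501 CPM at ZT0 and 2959, 2939, 2629 and 2859 CPM at ZT21 (log2 fold change 0.11, adjusted p = 0.66), and its inhibitor Angptl4 was at 158, 269.8, 112 and 490.5 CPM at ZT0 and 429.6, 313, 354 and 201 CPM at ZT21 (log2 fold change -0.33, adjusted p = 0.724).

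In the LPL pathway 1 of 13 (7.69%) was lower and 0 higher, beside 4.22% of all genes called lower. It was the lipoprotein receptor gene Vldlr (-0.40, adjusted p = 0.0323), whose call was lost without ZT0 replicates 2 or 3 or without ZT21 replicates 1, 2 or 3 (adjusted p 0.067 to 0.159). Cpt1a, which carries fatty acids into mitochondria, was the single gene called by edgeR of 21 in fatty acid oxidation and of 18 fasting-responsive genes, beside the same 4.22% (-0.38, adjusted p = 0.0199, lost without ZT0 replicates 1 or 3 or without ZT21 replicate 1, adjusted p 0.0618 to 0.0959). DESeq2 called 1 gene of fatty acid oxidation and 4 fasting-responsive genes lower and 0 higher, beside 722 of 13699 genes called lower. The fasting-responsive genes had a median log2 fold change of -0.36, and 4 of the 18 were positive. At an unadjusted p under 0.05 8 were lower and 1 higher, beside 3390 of 15505 genes in either direction. Pck1, a fasting-responsive enzyme of glyceroneogenesis, had -0.68 (adjusted p = 0.216). Of 25 genes of cholesterol synthesis and SREBP-2 targets, Msmo1 (0.91, adjusted p = 0.0124) and Stard4 (0.77, adjusted p = 0.000468) were higher and 0 lower, beside 3.50% of all genes called higher, and 21 of the 25 log2 fold changes were positive, with a median of 0.33. DESeq2 called 4 higher and 0 lower, beside 624 of 13699 genes called higher. At an unadjusted p under 0.05, 9 were higher and 0 lower, beside 3390 of 15505 genes in either direction. The call of Msmo1 was lost without ZT21 replicate 1 (adjusted p = 0.0649).

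Of 23 immediate early genes edgeR called 0 in this comparison, beside 7.72% of all genes, with 3 at an unadjusted p under 0.05 and 1 by DESeq2, while 7 were lower and 0 higher at ZT0 than at ZT3 within lane 2, beside 7.16% and 6.60% of all genes. The endothelial and pericyte list had 3 of 18 higher and 0 lower, beside 3.50% of all genes called higher. Its log2 fold changes ran from -0.37 to 0.59 and were positive in 11 of the 18, and 2 members were lower at an unadjusted p under 0.05. Emcn, an endothelial sialoglycoprotein gene, was at 46.9, 45, 39.7 and 36 CPM at ZT0 and 27.5, 30.1, 26.4 and 27.5 CPM at ZT21 (log2 fold change 0.59, adjusted p = 0.000203), and the VEGF receptor gene Kdr at 303, 369, 279.9 and 329 CPM at ZT0 and 218, 239, 240.0 and 239 CPM at ZT21 (log2 fold change 0.45, adjusted p = 0.0015). The angiopoietin receptor gene Tek had 0.35 (adjusted p = 0.0116), a call lost without ZT0 replicate 2 (adjusted p = 0.0645). The summed CPM of the 18 markers overlapped, at 2056 to 2475 at ZT0 and 1985 to 2121 at ZT21, and the part of cell composition in these calls was not tested.

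**Figure D4:**
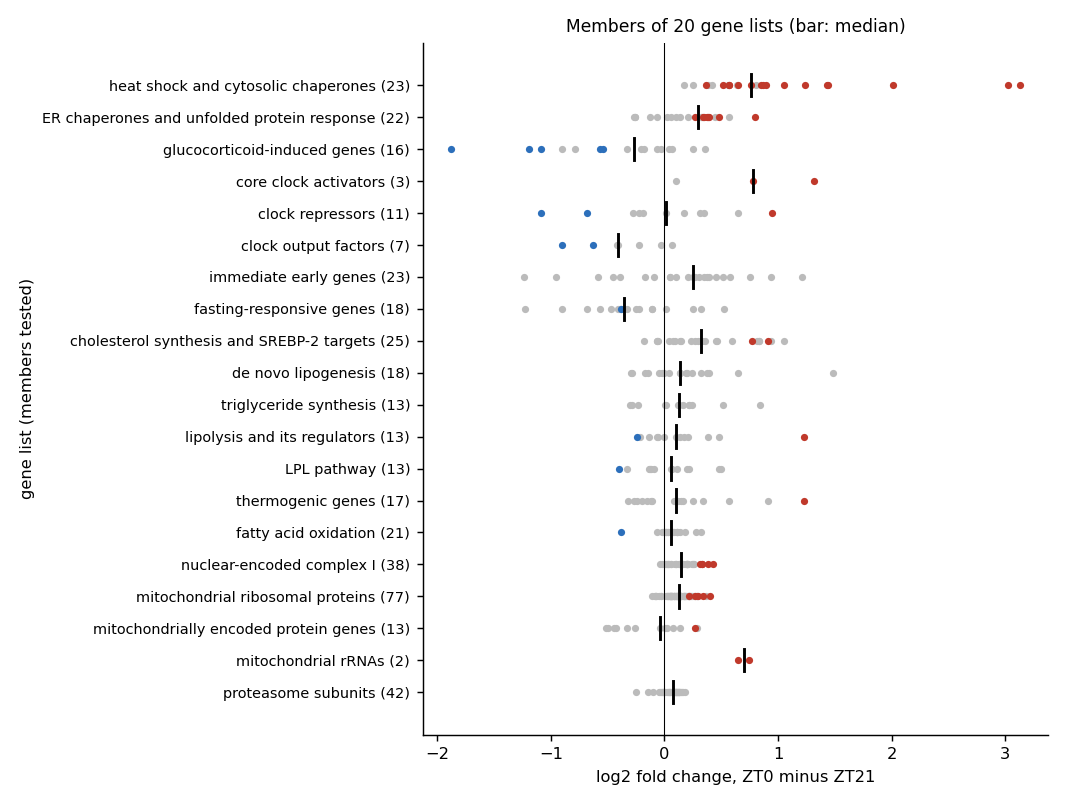
Log2 fold changes (ZT0 minus ZT21, horizontal axis) of the tested members of 20 gene lists, red where higher at ZT0, blue where lower and grey where the adjusted p was 0.05 or more, with a bar at the median of each list. The heat shock list reaches furthest to the right with a median of 0.76, and most points of the metabolic lists are grey, with medians such as -0.36 for fasting-responsive genes and 0.33 for cholesterol synthesis.

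A few nuclear genes of the respiratory chain, which makes the proton gradient of mitochondria, were higher at ZT0. Of 38 complex I genes 5 were higher and 0 lower, beside 3.50% of all genes called higher, and 36 log2 fold changes were positive, with a median of 0.15. Ndufa3 was at 224, 237, 229 and 195 CPM at ZT0 and 159, 193, 169 and 159 CPM at ZT21 (log2 fold change 0.38, adjusted p = 0.00183), and Ndufb2 had 0.43 (adjusted p = 0.00612). Nearer to that share, of 77 mitochondrial ribosomal protein genes 5 were higher and 0 lower, with a median of 0.13, and 1 of 43 genes of complexes II to V was higher. DESeq2 called 6, 6 and 4 of these lists higher and 0 lower. Over all tested genes, the bin of shortest transcripts had a median log2 fold change of 0.10. The part of transcript length in these small list medians was not tested. Among splicing factors and hnRNPs 4 of 30 were higher and 1 lower by edgeR, beside 3.50% and 4.22% of all genes, and 8 higher and 1 lower by DESeq2. At an unadjusted p under 0.05 11 were higher and 2 lower. Called genes were Luc7l3 (0.47, adjusted p = 0.00507) and Hnrnpk (0.30, adjusted p = 0.00198), and the related cyclin gene Ccnl2 was at 271, 307, 273 and 229 CPM at ZT0 and 135, 156, 157 and 173 CPM at ZT21 (log2 fold change 0.80, adjusted p = 0.000124). Of 40 mitochondrial carrier genes 3 were higher and 0 lower, beside the same 3.50%.

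Mitochondrially encoded genes took 23.3% ± 1.79 of counts at ZT0 and 22.5% ± 1.22 at ZT21 (SD, n = 4 each), a difference of 0.816 percentage points that did not pass an exact permutation test over the 8 mice (two-sided, p = 0.486). Of the 13 mitochondrial protein genes, edgeR called 1 (7.69%), mt-Nd4 (0.27, adjusted p = 0.0414), near the 7.72% called over all genes. DESeq2 called 1 higher and 1 lower, and at an unadjusted p under 0.05 1 was higher and 4 lower. The call of mt-Nd4 was lost without ZT0 replicates 1, 2 or 3 or without ZT21 replicates 2, 3 or 4 (adjusted p 0.0589 to 0.187). The 2 mitochondrial ribosomal RNAs were called higher at ZT0, beside 3.50% of all genes. The large one, mt-Rnr2, was at 4052, 6511, 6992 and 4045 CPM at ZT0 and 2745, 4139.7, 2761 and 3210.3 CPM at ZT21, with overlap (log2 fold change 0.75, adjusted p = 0.0078). The small one, mt-Rnr1, was at 2309, 3212, 3009 and 1816 CPM at ZT0 and 1562, 1777, 1613 and 1650.0 CPM at ZT21, without overlap (log2 fold change 0.65, adjusted p = 0.00851), and its call was lost without ZT0 replicate 2 (adjusted p = 0.055).

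Mitochondrial tRNA genes, a ribosomal RNA gene and some protein-coding genes were also among the largest fold changes at low levels. The mitochondrial tRNA genes mt-Tp, mt-Te and mt-Tq had log2 fold changes of 2.94, 2.01 and 2.11 at means of 6.03 ± 3.09, 3.81 ± 1.74 and 4.38 ± 3.33 CPM at ZT0 (SD, n = 4 each). The call of mt-Tq was lost without ZT0 replicate 4 or without ZT21 replicates 1, 2, 3 or 4 (adjusted p 0.052 to 0.133). The ribosomal RNA gene CT010467.1 was at 5.58, 3.38, 3.22 and 2.67 CPM at ZT0 and 0.736, 0.689, 0.835 and 1.38 CPM at ZT21 (log2 fold change 2.02, adjusted p = 0.000203). Sums over gene types were scaled to library size alone, without TMM correction. On that scale, genes annotated as ribosomal RNA summed to 4.07 to 6.16 at ZT0 and 1.56 to 2.45 at ZT21, without overlap. Those of mitochondrial ribosomal RNA summed to 5873 to 9839 and 4254 to 5751, also without overlap. With TMM correction, the sums of mitochondrial ribosomal RNA did overlap. There mt-Rnr1 and mt-Rnr2 were at 1816 and 4045 CPM in ZT0 replicate 4, and at 1777 and 4139.7 CPM in ZT21 replicate 2. Their sum was thus lower in that ZT0 mouse than in that ZT21 mouse. Genes of mitochondrial tRNA, again without TMM correction, summed to 46.1 to 76.5 at ZT0 and 33.4 to 50.7 at ZT21, with overlap. Pdzd9, which holds a PDZ domain, was at 5.46, 3.85, 1.97 and 2.11 CPM at ZT0 and 0.17, 0.23, 0.557 and 0.69 CPM at ZT21 (log2 fold change 3.00, adjusted p = 0.000147), and the ferroxidase gene Hephl1, a relative of hephaestin, at 4.17, 6.34, 16.4 and 3.78 CPM at ZT0 and 0.566, 0.918, 2 and 1.95 CPM at ZT21 (log2 fold change 2.49, adjusted p = 0.00938, lost without ZT0 replicate 3, adjusted p = 0.0667). Teddm2, the T-box factor gene Tbx21 and the guanylate cyclase activator gene Guca1b completed the 15 highest, with means 3.69, 2.85 and 2.84 times as high at ZT0, and the call of Tbx21 was lost without ZT21 replicate 1 (adjusted p = 0.0522).

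Transcript length moved with the contrast. The median length of the longest annotated transcript was 3003 bases in genes higher at ZT0, 4572 bases in genes lower at ZT0 and 3069 bases in genes that did not pass. Over 8 length bins of the tested genes, the median log2 fold change went from 0.10 in the shortest (median 764 bases) to -0.08 in the longest (median 7554 bases). The same order was seen within lane 2, where the medians for ZT0 minus ZT3 went from 0.13 to -0.13, and the reverse within lane 4, where those for ZT21 minus ZT18 went from -0.09 to 0.03. With a length trend removed from each library, 1073 genes passed, 576 higher and 497 lower, so that 53.7% of calls were higher in place of 45.4%, and 945 of them were among the 1197. The heat shock list kept its count of 16 and the ER list its count of 8 under that setting. Of the 84 named genes that were called, 0 changed sign and 4 lost their call: Kif1b (adjusted p = 0.058), mt-Nd4 (0.147), Nampt (0.0777) and Vldlr (0.0875).

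**Figure D5:**
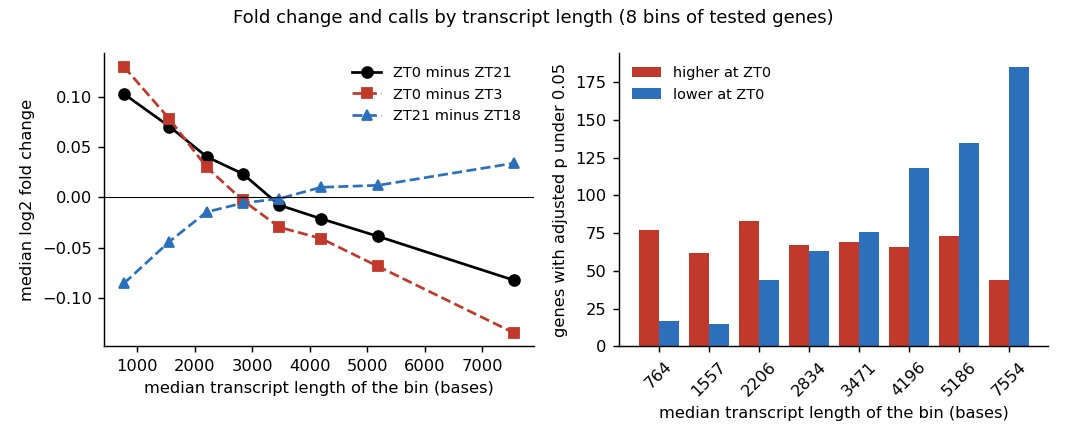
Median log2 fold change in 8 bins of transcript length (left, in bases) for ZT0 minus ZT21 in black, ZT0 minus ZT3 in red and ZT21 minus ZT18 in blue, and the number of genes called higher (red) or lower (blue) at ZT0 in each bin (right). The number called lower at ZT0 was 17 in the shortest bin and 185 in the longest.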

How the data were processed

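RNA of iBAT was sequenced as stranded paired-end libraries. According to the labels and methods, the authors aligned reads with GSNAP to mm10 and made gene counts with HTSeq 0.6.1, whose strand setting is not given in the sources used here. The deposited values are raw counts, 1 column per mouse, with no normalization, and genes that overlap on opposite strands are uncertain.

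From these counts, edgeR 4.0.16 in R 4.3.3 applied its expression filter (minimum count 10) and TMM scaling to all 32 libraries, which share 1 estimate of spread over 8 time points, and tested ZT0 minus ZT21 with the quasi-likelihood F test and Benjamini-Hochberg adjustment at 0.05. DESeq2 1.42.0 was an alternative. The tests were tried on simulated data. Differences at low counts are shrunken by a prior count.

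Named genes were list members, the 15 highest and 15 lowest log2 fold changes, and the 10 largest rises and 10 largest falls in CPM, among called genes of at least 1 CPM whose groups did not overlap, without unnamed gene models and pseudogenes. Some genes that this rule picks are not reported here. Stip1, Nr1d1, Usp2 and mt-Rnr2 overlapped between groups. Members and lists were chosen with earlier results of these data known. Gene positions and lengths are from GENCODE M21, and promoters from RefSeq. No 2 of the 8 libraries agreed within sampling noise.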

Additional observations from a re-analysis of the deposited data

Results flagged for a closer look

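Among the genes named above and the share of counts in mitochondrially encoded genes, 218 groups of 4 mice were examined. Each was searched for a mouse that stood apart from the other 3 (Dixon's test at its 95% critical value), and 9 groups held 1. Chance gives about 1 in 20 such groups. Pdia6 was lowest in ZT0 replicate 4, at 93.1 CPM, where the nearest mouse was at 103 CPM. Fkbp5 was highest in ZT0 replicate 3, at 10.9 CPM, where the nearest mouse was at 6.1 CPM. Kdr was lowest in ZT21 replicate 1, at 218 CPM, where the nearest mouse was at 239 CPM. mt-Tq was highest in ZT0 replicate 4, at 9.34 CPM, where the nearest mouse was at 3.08 CPM. Banp was lowest in ZT0 replicate 4, at 21.3 CPM, where the nearest mouse was at 25.2 CPM. Pgm3 was lowest in ZT0 replicate 4, at 7.06 CPM, where the nearest mouse was at 15.7 CPM. Sptbn1 was highest in ZT0 replicate 4, at 919.8 CPM, where the nearest mouse was at 811 CPM. Kif1b was lowest in ZT0 replicate 2, at 196 CPM, where the nearest mouse was at 267 CPM. Map7d3 was highest in ZT0 replicate 4, at 4.95 CPM, where the nearest mouse was at 1.97 CPM. ZT0 replicate 4 was the mouse in 6 of the 9.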

How the results depend on the processing

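Where they had a value, the 84 called genes named here kept their direction under every alternative run except the 24 h cosine beside lane, which reversed 62 of them. By construction that fit takes the difference from changes within lanes, so a gene that is high at ZT0 and low at ZT21, and falls from ZT0 to ZT3 and from ZT18 to ZT21, can have its sign turned. Its log2 difference, ZT0 minus ZT21, for genes higher at ZT0 in the comparison of groups was Hspa1b -2.27, Hspa1a -1.97, Hsph1 -1.502, P4ha1 -1.03, Banp -1.02, Hephl1 -0.998, Hspa8 -0.91, Dnaja1 -0.87, Chordc1 -0.76, Dnajb1 -0.74, Pgm3 -0.69, mt-Rnr2 -0.63, Hspb1 -0.61, mt-Rnr1 -0.60, Guca1b -0.52, Stip1 -0.51, Bag3 -0.47, Tbx21 -0.45, Dnajb4 -0.45, Serpinh1 -0.43, Teddm2 -0.40, Ahsa1 -0.34, Ccnl2 -0.33, Fkbp4 -0.30, Hsp90ab1 -0.26, Emcn -0.22, Ndufb2 -0.22, Msmo1 -0.21, Arntl -0.20, Luc7l3 -0.18, Ndufa3 -0.13, Stard4 -0.13, Kdr -0.13, Hspa4 -0.12, CT010467.1 -0.11, Hspa5 -0.0948, Manf -0.0557, Pdia6 -0.0512, Tek -0.0357, Hsp90b1 -0.0329 and Calr -0.000699. For genes lower at ZT0 there it was Nfe2l3 1.56, Mycl 0.95, Tmeff1 0.73, Zbtb16 0.70, Rab20 0.64, Ppp1r10 0.58, Map7d3 0.55, Map9 0.47, Ccne2 0.42, Arhgap32 0.34, Adamts6 0.31, Tfrc 0.31, Klf9 0.27, Vldlr 0.21, Cpt1a 0.19, Per1 0.19, Rora 0.17, Pxylp1 0.10, Smad9 0.0945, Tob2 0.091 and Kif1b 0.0575. The cosine fit called 0 heat shock genes higher and 15 lower, 2 ER chaperone genes higher and 0 lower, and 3 glucocorticoid genes higher and 2 lower. Of the 53 named genes called higher it called 21 lower and 2 higher, and of the 31 called lower 4 each way. Over all genes it gave 1345 calls with lane (692 higher and 653 lower of 15505) and 2899 without.

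Against the 1197 genes (543 higher, 654 lower), library size alone in place of TMM scaling gave 959 (344 and 615), so that 35.9% in place of 45.4% of calls were higher. No filter on low counts gave 763 (337 and 426), the fit to the 8 libraries only 489 (207 and 282), a test for changes beyond 1.5-fold 28 (26 and 2), and the data without the 4 libraries with muscle transcripts 277 (126 and 151). The test against a 1.5-fold change called 6 heat shock, 0 ER chaperone and 0 glucocorticoid genes, and without the muscle libraries 9 heat shock genes and 1 glucocorticoid gene were called. The fits without a filter test more genes and those without libraries have fewer samples, and the cause of the other shifts was not tested. DESeq2 size factors gave 1186, removal of mitochondrial genes 1185, DESeq2's Wald test 1346, a muscle covariate 1214 and a length offset 1073. Muscle and length alternatives were chosen after seeing the data.

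Leaving out 1 library gave 581 to 1650 calls (248 to 765 higher and 312 to 885 lower), 14 to 19 heat shock genes, 1 to 5 glucocorticoid genes and 8 ER chaperone genes in each fit. Of the 84 named genes, 55 held in all 8 such fits. With the 8 libraries alone 26 of the 84 lost their call, and without the 4 libraries with muscle transcripts 48 did. A replicate block in the 8 libraries alone lost 75. Adrb3 and Nr1d1, whose calls held without any 1 library, lost them under each of these settings. The mitochondrial share differed by 0.178 to 1.44 percentage points, and by 0.522 for protein genes alone (exact permutation p = 0.743).

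The labels give ZT0 and ZT21 mice the same replicate numbers, but each mouse is a different animal. Same-numbered mice deviated from their group means with correlations of -0.53, 0.33, 0.39 and -0.56, so the numbers do not pair the mice. With the replicate block in all 32 libraries 1138 genes passed, and with the block in the 8 libraries alone 20 (13 higher and 7 lower), with 4 heat shock, 1 ER chaperone and 0 glucocorticoid genes. With 4 mice per group and these depths, genes under 1 CPM carry few counts, and lane cannot be told apart from time.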
